A study of Mus musculus with 4 samples.

Results

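Kcnj10, Kcnj8, Kcnj2, Abcc9, Kcnk1, Kcnab1, Kcna1 and Scn7a encode potassium and sodium channel proteins of glia and of the mural cells that wrap blood vessels. They were taken by gene symbol, 8 genes of the 32285 measured, and all 8 were found under 1 Ensembl identifier each. The data were droplet single-cell RNA sequencing libraries of leg muscle (tibialis anterior and gastrocnemius) from 2-month-old males. Every mouse carried S100GFPtg, a reporter that places GFP under the S100B promoter and lights Schwann cells, although other cells also use this promoter. The groups were WT mice (S100GFPtg) and Sod1KO mice (S100GFPtg Sod1-/-), labelled as lacking superoxide dismutase 1, and the cells of each genotype were sorted into GFP+ and GFP- fractions. The muscles of 4 mice per genotype were pooled and each fraction gave 1 library, so the 4 libraries were WT GFP+, Sod1KO GFP+, WT GFP- and Sod1KO GFP-.

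Glia hold extracellular potassium steady around active axons, and inward rectifier channels such as the product of Kcnj10 carry much of that uptake in the central nervous system. In vessel walls, ATP-sensitive potassium channels couple the metabolism of a mural cell to its membrane potential and so to vascular tone. These channels are built from a pore subunit encoded by Kcnj8 and a sulfonylurea receptor subunit encoded by Abcc9. Sodium channel genes are best known from axons and muscle fibres, but the product of Scn7a, which senses extracellular sodium, is found in glia and connective tissue.

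The libraries held between 2052 and 7267 barcodes, with 6152.5 to 13825.5 UMIs (unique molecular identifiers, 1 per captured mRNA molecule) in the median barcode. Values for all libraries are given in the order WT GFP+, Sod1KO GFP+, WT GFP-, Sod1KO GFP- unless named. After filtering, 4557, 5925, 1638 and 5143 cells were left. Between 1 and 13 barcodes were shared by any pair of libraries. Sod1 itself, which checks the labels, was measured at 91.3, 98.2, 124 and 113 CPM. CPM is the UMI count of a gene in the cells named, scaled to 1000000 UMIs in those cells. The transcript was therefore not lost in the libraries labelled Sod1KO, and the part of the gene that is deleted was not given in the sources used here. WT and Sod1KO below stand for library labels. Each comparison was between 2 libraries with no replicate, no test across animals was possible, and all intervals are exact 95% intervals that cover counting error only. A gene is said to rise or fall where the interval of its ratio lies off 0, which speaks of these libraries alone.

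Cells were clustered without the 8 genes, so the genes neither formed nor named a class. Myelinating Schwann cells (mSC-like) numbered 1079 and 656 in the GFP+ libraries, in clusters that held 12 of 12 myelin markers such as Mbp and Mag. Terminal or other nonmyelinating Schwann cells (tSC-like) numbered 380 and 882, in clusters with 11 to 15 of 16 markers such as Ngfr, Bche and Gap43. Smooth muscle-like cells (9 of 10 markers) numbered 554 and 394 in the GFP+ libraries, and 37 and 183 in the GFP- libraries. Pericyte-like cells (10 of 10 markers, among them Rgs5 and Pdgfrb) numbered 41, 50, 52 and 208. Between 21.2% and 56.8% of the cells of a library lay in clusters that stayed unnamed. A cluster stayed unnamed if it carried markers of more than 1 class, met no marker list, was too shallow or held under 50 cells. Cluster 8, with myelin and perineurial markers together, and cluster 5, with 10 of 10 pericyte and 10 of 10 endothelial markers, are given by number.

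**Figure D1:**
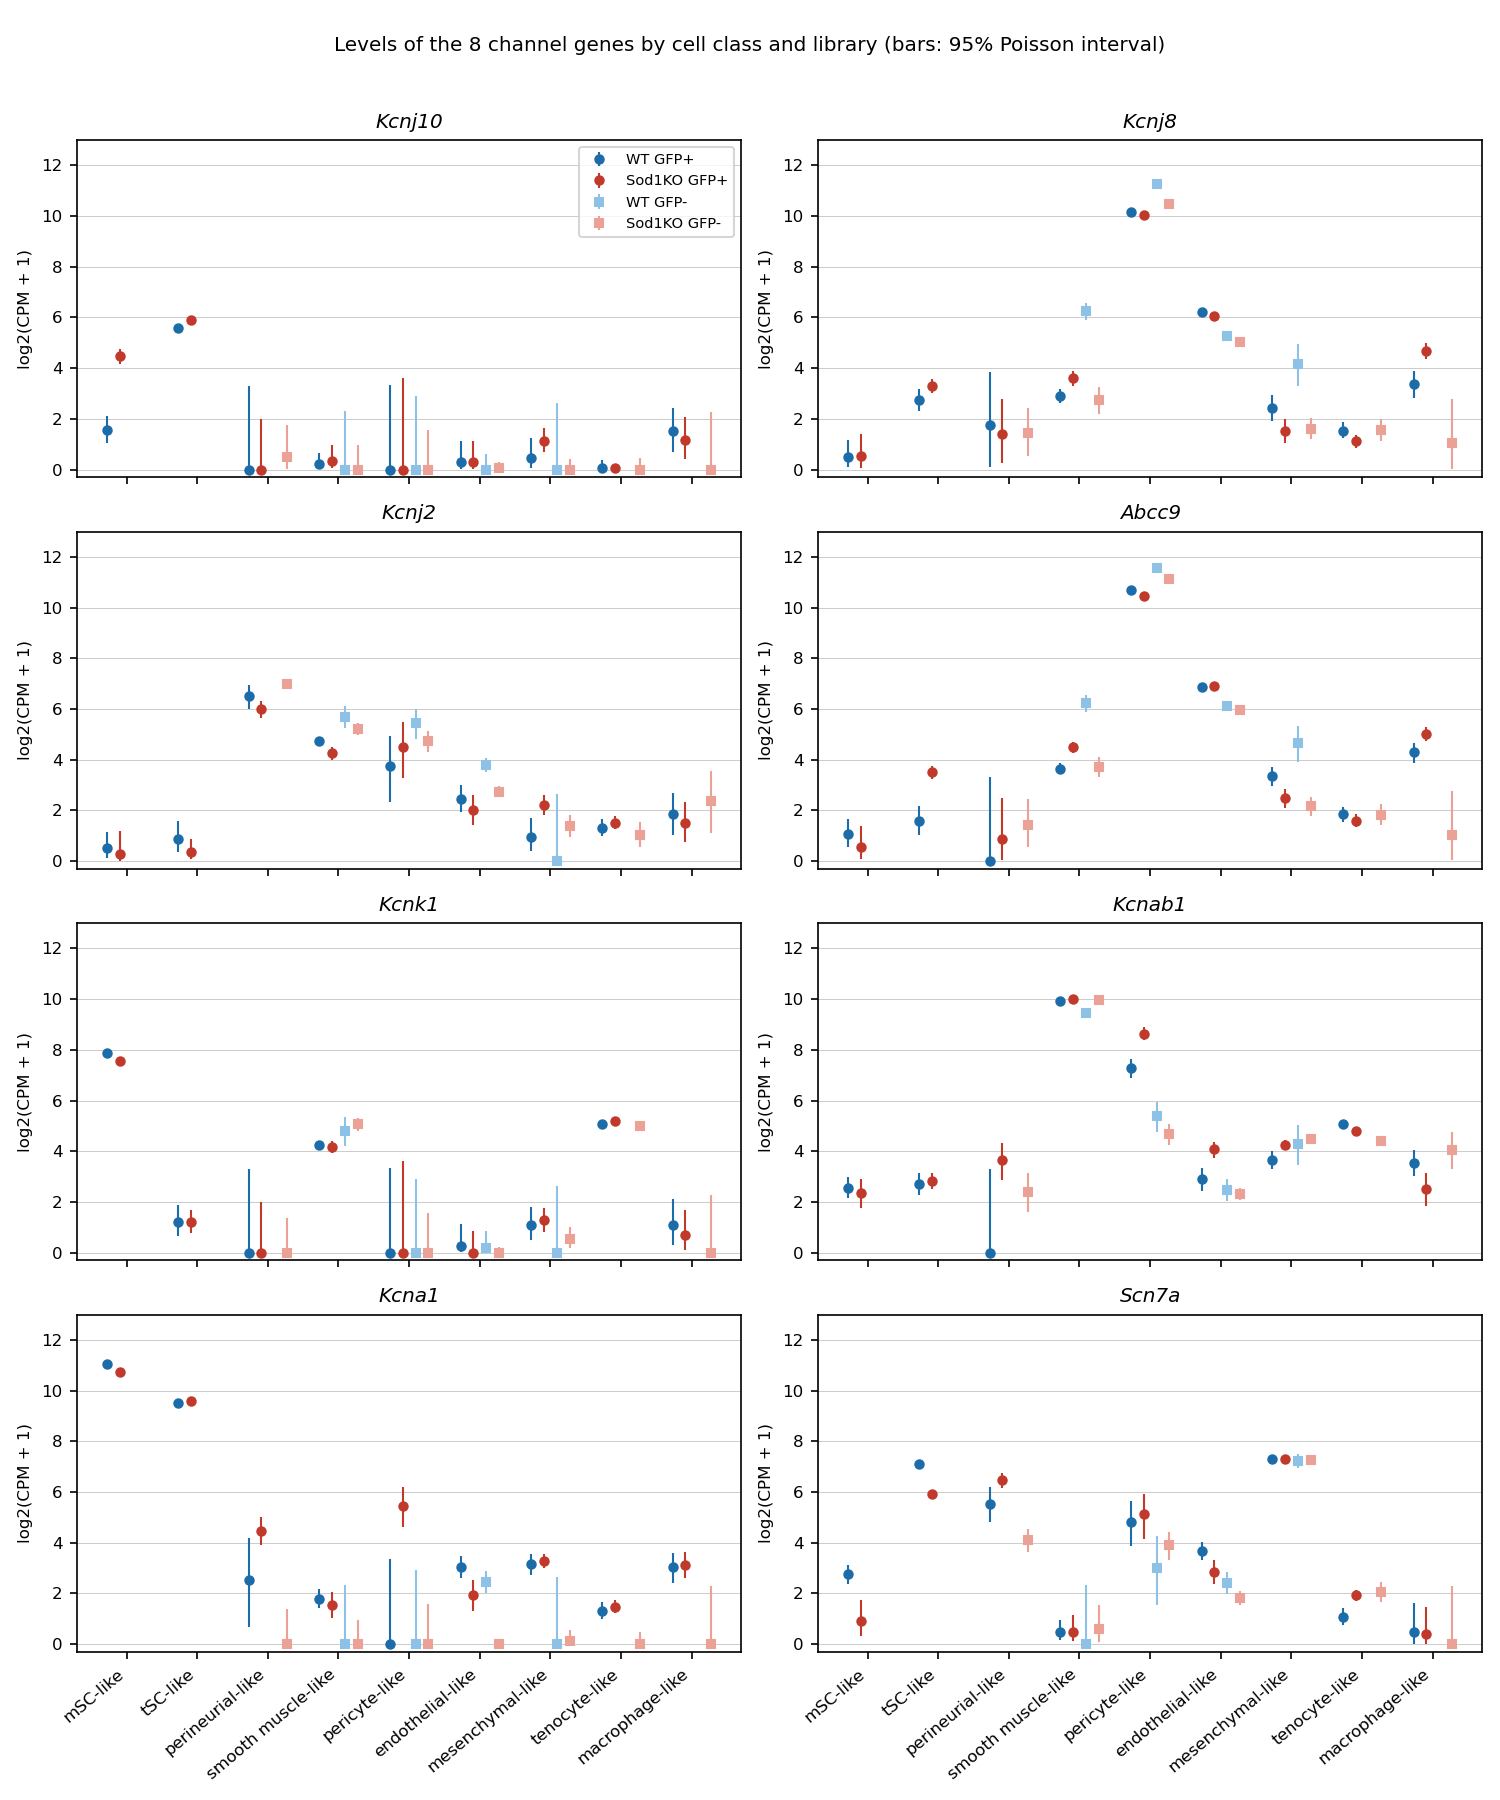
Level of each of the 8 genes by cell class and library, as log2 of CPM plus 1 on the vertical axis. Points are libraries, vertical bars are exact Poisson 95% intervals, and only classes with at least 30 cells in a library are drawn; Kcna1 is highest in mSC-like cells (2125 and 1691 CPM in the GFP+ libraries), Kcnab1 in smooth muscle-like cells (966 and 1029 CPM), and Kcnj8 and Abcc9 in pericyte-like cells.

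Kcnj8 (ENSMUSG00000030247) and Abcc9 (ENSMUSG00000030249) lie side by side on mouse chromosome 6, on the same strand, with 16.2 kb and 0 RefSeq genes between them (chr6:142564837-142571614 and chr6:142587862-142702766, GRCm38.p6; the submitters' notes name mm10, the same build). Kcna1 (ENSMUSG00000047976) lies elsewhere on that chromosome, at chr6:126636463-126645801. Kcnj10 (ENSMUSG00000044708) is at chr1:172341210-172374085, Scn7a (ENSMUSG00000034810) at chr2:66673426-66784910, Kcnab1 (ENSMUSG00000027827) at chr3:64949212-65378225, Kcnk1 (ENSMUSG00000033998) at chr8:125993655-126030685 and Kcnj2 (ENSMUSG00000041695) at chr11:111066164-111076825. Kcnab1 overlaps 3 other RefSeq genes and Abcc9 overlaps 1, so reads in the overlap could belong to either gene. Upstream sequence is shown for the genes whose levels moved most between genotypes in Schwann cells and for 1 gene of the mural pair. Each line is RefSeq sequence, the part of the 250 bases before the RefSeq start that lies outside annotated exons, 5′ to 3′ on the strand of the gene. The Abcc9 start used lies inside the gene span given above, so the Abcc9 stretch falls within the gene. Of the 250 bases before that start, 158 are annotated Abcc9 exon.
Kcnj10, chr1:172341090-172341197, plus strand: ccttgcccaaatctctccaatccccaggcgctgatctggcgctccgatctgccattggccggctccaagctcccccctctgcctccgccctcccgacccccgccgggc
Scn7a, chr2:66785024-66785160, minus strand: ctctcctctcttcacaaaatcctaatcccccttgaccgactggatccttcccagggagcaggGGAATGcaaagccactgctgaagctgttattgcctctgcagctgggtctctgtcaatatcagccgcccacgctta
Abcc9, chr6:142702373-142702464, minus strand: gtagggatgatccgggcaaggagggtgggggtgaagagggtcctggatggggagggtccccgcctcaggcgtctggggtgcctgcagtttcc
The capitals mark GGAATG, a core sequence bound by TEAD factors, which began 188 bases before the Scn7a start. It also began 219 bases before the Abcc9 start used, outside the stretch shown and in annotated Abcc9 exon. It began 32 bases before the Kcnk1 start used as well. It was present in 12.6% of 32851 promoters of the same length when both strands were searched. The SOX-type cores ACAATG (10.7% of promoters) and ACAAAG (16.5%) and the forkhead core GTAAACA (3.17%) had no match in the 250 bases before Kcnj10, Scn7a, Abcc9 or Kcnj8. For Kcnj8 all 250 of these bases are annotated Kcnj8 exon. ACAATG had 1 match before Kcnk1 and 1 before a Kcnab1 start, which also had 1 match of ACAAAG. G and C made up 70.4% of the Kcnj10 stretch, 67.4% of the Abcc9 stretch and 54.0% of the Scn7a stretch.

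Kcna1, which encodes a voltage-gated potassium channel alpha subunit best known from the axon membrane beside the node of Ranvier, was found mainly in Schwann cells. In mSC-like cells it stood at 2125 CPM (2091–2159) under the WT label and 1691 CPM (1653–1730.1) under the Sod1KO label. A Kcna1 UMI was seen in 1064 of 1079 and 643 of 656 of these cells. In tSC-like cells it stood at 736 CPM (714–758) and 772 CPM (755–789). The intervals of the mSC-like and tSC-like classes did not overlap in either library. In the other classes of at least 50 cells, WT GFP+ gave 1.5 to 7.84 CPM, and the highest of them in Sod1KO GFP+ was the cycling-like class (262 CPM, 54 cells). The GFP- libraries held 189 and 175 Kcna1 UMIs in all, against 25332 and 20458 in the GFP+ libraries. Of the 31 Kcna1 UMIs in endothelial-like cells of WT GFP-, all came from 1 cell, and 1617 endothelial-like cells of Sod1KO GFP- held 0, which allows up to 0.155 CPM. After each cell was thinned to 1000 UMIs, 79.6% and 74.2% of mSC-like cells held a Kcna1 UMI, against 0.328% and 0.329% of endothelial-like cells (median 11432 and 11404.5 UMIs a cell against 6238 and 6110 in mSC-like cells). Unthinned, the shares were 98.6% and 98.0% in mSC-like cells.

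Kcna1 was lower in the library labelled Sod1KO within each main Schwann cluster, and this was hidden when all tSC-like cells were summed. In mSC-like cells the log2 ratio of Sod1KO GFP+ over WT GFP+ was −0.33 (−0.37 to −0.29), and it was −0.30 in cluster 2 and −0.36 in cluster 18, the clusters that make up the class. In tSC-like cells as a whole it was 0.07 (0.02 to 0.12). Cluster 7, however, fell from 1739.7 to 912 CPM, a log2 ratio of −0.93 (−1.02 to −0.84). Cluster 14 fell from 607 to 262 CPM, a log2 ratio of −1.21 (−1.34 to −1.08). The classes were mixed differently: of the tSC-like cells, cluster 14, with the lower level, held 282 of 380 WT and 137 of 882 Sod1KO cells, and cluster 7 held 85 and 658. The small cluster 32 went the other way, from 463 to 755 CPM (log2 ratio 0.70, 0.08 to 1.40), on 13 WT cells. In the unnamed cluster 8 Kcna1 fell from 894 to 532 CPM, a log2 ratio of −0.75 (−0.81 to −0.69). The plot of genotype ratios in Schwann cells sets the whole classes beside their clusters.

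**Figure D2:**
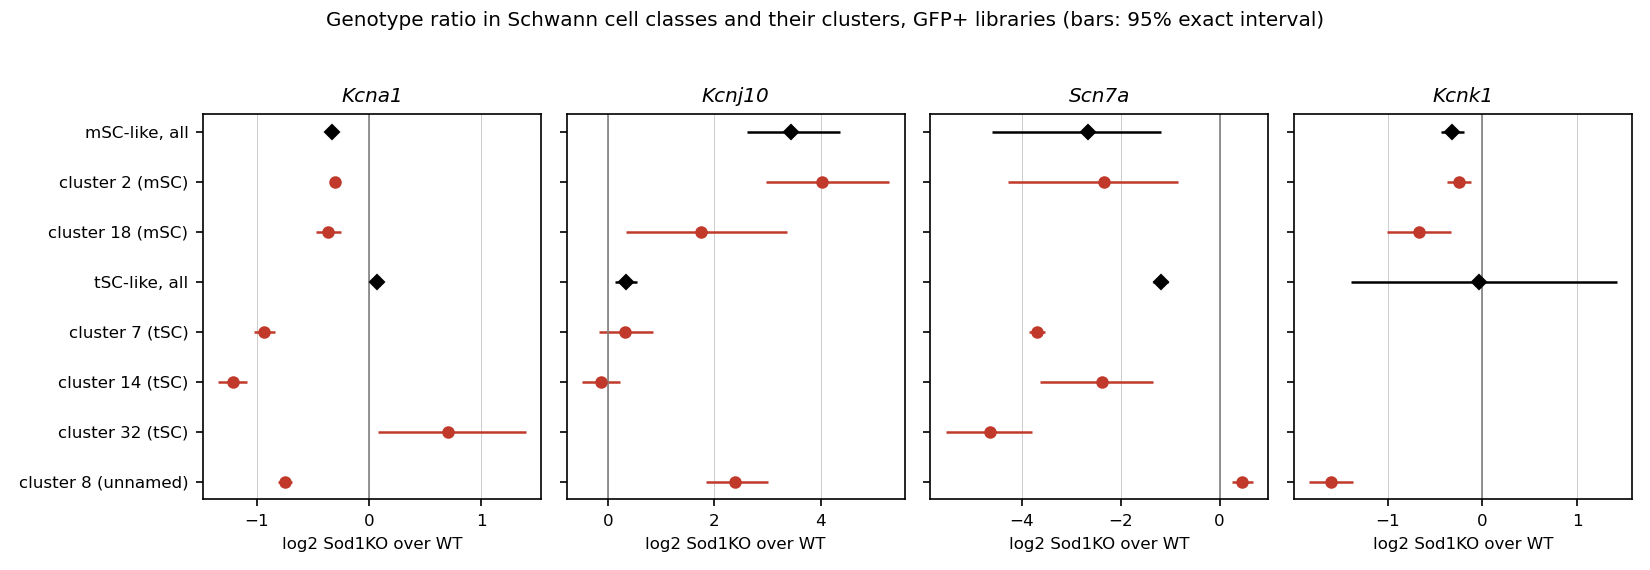
Log2 ratio of CPM, Sod1KO GFP+ over WT GFP+, for Kcna1, Kcnj10, Scn7a and Kcnk1. Diamonds are the mSC-like and tSC-like classes, red points are single clusters, bars are exact 95% intervals for counting error; for Kcna1 the tSC-like diamond sits at 0.07 while its clusters 7 and 14 sit at −0.93 and −1.21.

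Kcnk1 encodes a two-pore-domain channel that carries background potassium current. In the GFP+ libraries mSC-like cells held 235 CPM (223–246) under WT and 188 CPM (175–201) under Sod1KO, with a UMI in 772 of 1079 and 417 of 656 cells. The log2 ratio was −0.32 (−0.44 to −0.20), with −0.25 in cluster 2 and −0.67 in cluster 18. In cluster 8 it fell from 86.9 to 28.7 CPM, a log2 ratio of −1.60 (−1.83 to −1.37). Kcnk1 thus separated the Schwann classes, since tSC-like cells held 1.34 and 1.30 CPM. Of mSC-like cells, 766 of 1079 and 413 of 656 held UMIs of both Kcnk1 and Kcna1. Outside Schwann cells it was found in tenocyte-like cells at 32.6 and 35.2 CPM and in smooth muscle-like cells at 17.7 and 16.9 CPM, with log2 ratios of 0.11 (−0.03 to 0.26) and −0.07 (−0.40 to 0.26) that spanned 0. Tenocyte-like cells held 46.7% of the Kcnk1 UMIs of Sod1KO GFP+, more than the 35.3% of mSC-like cells, while in WT GFP+ mSC-like cells held 54.0% and tenocyte-like cells 20.3%. Pericyte-like and perineurial-like cells held 0 Kcnk1 UMIs in all 4 libraries, which allows between 1.59 and 20.0 CPM depending on the number of cells.

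Kcnj10, the glial inward rectifier, was found mainly in tSC-like cells of WT GFP+. There it stood at 46.8 CPM (41.5–52.6) in tSC-like cells and 1.96 CPM (1.07–3.29) in mSC-like cells, and tSC-like cells held 81.8% of the Kcnj10 UMIs of the library. In Sod1KO GFP+ tSC-like cells stood at 58.7 CPM (54.2–63.5) and held 64.0%. The GFP- libraries held 1 and 12 Kcnj10 UMIs in all. A UMI was seen in 159 of 380 and 351 of 882 tSC-like cells, or in 5.01% and 5.34% after thinning to 1000 UMIs (median depth 12175.5 and 9492 UMIs before), against 0 of 305 and 0 of 304 endothelial-like cells, which allows shares of up to 0.984% and 0.987% (3 cells of the total). The log2 ratio in tSC-like cells was 0.33 (0.12 to 0.54). It was 0.31 (−0.18 to 0.84) in cluster 7 and −0.13 (−0.49 to 0.22) in cluster 14, so neither main cluster gave a difference beyond counting error.

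In mSC-like cells Kcnj10 rose from 1.96 CPM, on 14 UMIs in 10 of 1079 cells, to 21.2 CPM (17.1–25.9), on 93 UMIs in 37 of 656 cells. The log2 ratio was 3.43 (2.61 to 4.36), 4.03 (2.98 to 5.29) in cluster 2 and 1.74 (0.34 to 3.36) in cluster 18. Kcnj10 was the 1 member of 4 with enough UMIs (50 over both libraries) that was at least 2-fold higher in mSC-like cells of Sod1KO GFP+, where 0.804% of 10324 genes were, and 0 members were at least 2-fold lower, against 0.881% of genes. Below the limit of 50 UMIs, Scn7a fell in mSC-like cells, from 5.74 CPM on 41 WT UMIs to 0.910 CPM on 4 Sod1KO UMIs. That log2 ratio was −2.66 (−4.60 to −1.19), and 1 WT cell held 60% of the 35 WT UMIs in cluster 2. The 93 Kcnj10 UMIs were unevenly held, and 9 cells carried 50% of them. The 37 cells with a Kcnj10 UMI held 62432 CPM summed over the myelin markers and 357 CPM summed over the tSC markers. The 619 mSC-like cells without one held 42951 and 386 CPM. In WT GFP+ the 10 cells with a UMI held 760.1 CPM of the tSC markers and the 1069 without one 421 CPM. The order of the tSC sums thus differed between the libraries, and the Sod1KO cells with Kcnj10 were deeper, with a median of 9507 against 6026 UMIs; the part of these values in the rise was not tested. After thinning, the share of mSC-like cells with Kcnj10 was 0.0928% (WT) and 1.52% (Sod1KO), from 0.927% and 5.64% before. Cluster 8 moved likewise, from 4.88 to 25.7 CPM (log2 ratio 2.40, 1.84 to 3.00), with a UMI in 16 of 314 and 93 of 320 cells. Other markers moved with it there, since over all cells of cluster 8 the tSC markers summed to 780.3 and 1852 CPM, the myelin markers to 18522 and 9160.0 CPM and the perineurial markers to 3497 and 2867 CPM. Their part in the ratios of cluster 8, those of Kcna1, Kcnk1, Kcnj2 and Scn7a included, was not tested. In that cluster 2 members, Kcnj10 and Kcnab1, were at least 2-fold higher, where 4.91% of genes were, and 2, Kcnj2 and Kcnk1, were at least 2-fold lower, where 2.37% were.

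Scn7a, the sodium-sensing relative of the voltage-gated sodium channels, was shared by glia and connective tissue. In mesenchymal-like cells (Pdgfra, Pi16 and other fibroblast markers) it stood at 159, 157, 150 and 155 CPM. These levels were nearly level across genotype and sort, with log2 ratios of −0.02 (−0.15 to 0.10) in the GFP+ libraries and 0.05 (−0.24 to 0.35) in the GFP- libraries. Its 3 clusters did not move alike in the GFP+ libraries: cluster 4 (Myoc, Fst) gave 0.27 (0.07 to 0.46), cluster 11 (Cxcl14) −0.26 (−0.48 to −0.04) and cluster 22 (Pi16) −0.66 (−0.96 to −0.37). Perineurial-like cells, which sheathe nerve fascicles, held 45.8 CPM on 46 WT cells and 87.1 CPM on 89 Sod1KO cells of the GFP+ sort, a log2 ratio of 0.93 (0.21 to 1.71), but 16.3 CPM in Sod1KO GFP-.

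In tSC-like cells Scn7a fell from 137 CPM (127–146) to 59.9 CPM (55.3–64.7), a log2 ratio of −1.19 (−1.34 to −1.04). It was the 1 member of 6 with enough UMIs at least 2-fold lower there, where 4.42% of 11689 genes were, and Abcc9 was the 1 at least 2-fold higher, where 4.33% were (8.75% in either direction). The signal came from few cells, 76 of 380 and 73 of 882, and 12 and 13 of them carried 50% of the UMIs. Single clusters fell further than the class, from 983 to 76.5 CPM in cluster 7 (log2 ratio −3.69, −3.85 to −3.53) and from 18.9 to 3.63 CPM in cluster 14 (−2.38, −3.63 to −1.35). Cluster 7 held 85 WT and 658 Sod1KO cells. Of the UMIs of the class, 634 of 814 and 501 of 643 lay in the small Gfra3 group described next, whose own ratio was −0.70. The part of that group in the cluster 7 ratio was not tested. After thinning, 10.6% and 3.86% of tSC-like cells held a UMI, against 0.656% and 0.658% of endothelial-like cells (unthinned, 20.0% and 8.28% of tSC-like cells). The GFP- sort held 7 tSC-like cells, all in Sod1KO, and 3 of them held 61 Scn7a UMIs. Cluster 8 went the other way, from 47.3 to 65.2 CPM (0.46, 0.25 to 0.68).

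Re-clustering the tSC-like cells of the GFP+ libraries without the 8 genes placed most Scn7a in 1 small group. Subcluster 4, led by Gfra3, Fst and Aldh1a1, held 27 of 380 WT cells (7.11%) and 35 of 882 Sod1KO cells (3.97%). Gfra3, the receptor for artemin, stood at 353 and 391 CPM there and at most 1.40 CPM in the other subclusters. Scn7a was found in 27 of 27 and 33 of 35 of these cells, at 2761 and 1702 CPM, and the 634 and 501 UMIs were most of the 814 and 643 of the class. Within the subcluster the log2 ratio was −0.70 (−0.87 to −0.53). The same ratio was −1.78 (−2.62 to −0.83) in subcluster 0 (54.4 to 15.8 CPM) and −1.05 (−1.74 to −0.42) in subcluster 1 (23.7 to 11.4 CPM). In subcluster 2 it went from 952 to 33.6 CPM (−4.82), with 44 UMIs in 4 of 12 WT cells. Subcluster 3, led by Olig1 and Tmem158, with Ngfr at 501 CPM, was seen in 79 Sod1KO cells and 0 WT cells and held 0 Scn7a UMIs, which allows up to 3.25 CPM. Without the Gfra3 subcluster the Scn7a ratio of tSC-like cells was −1.21.

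The makeup of the tSC-like class differed between the libraries. Subcluster 0, led by Sema3g and Nkd1, held 7.89% (WT) and 59.1% (Sod1KO) of tSC-like cells, and subcluster 1, led by Lyz2, Unc80 and Bche, held 80.0% and 17.6%. Kcna1 fell in both, from 1708 to 899 CPM in subcluster 0 (log2 ratio −0.93, −1.07 to −0.78) and from 629.9 to 275 CPM in subcluster 1 (−1.19, −1.32 to −1.07). It also fell in the Gfra3 subcluster, from 2596 to 1855 CPM (−0.48, −0.66 to −0.32). In subcluster 2 it rose, from 454 to 737 CPM (0.70, 0.06 to 1.41), on 12 WT and 84 Sod1KO cells. Kcnj10 was 67.0 and 75.7 CPM in subcluster 0, 48.1 and 44.7 CPM in subcluster 1 and 26.1 and 37.4 CPM in the Gfra3 subcluster, with every interval of the ratio spanning 0. The order of Kcnj10 among subclusters therefore differed from that of Scn7a. UMIs of both were seen in 30 of 380 and 28 of 882 tSC-like cells, and Scn7a was found in 18.9% of cells with Kcnj10 and 20.8% of those without in WT, and in 7.98% and 8.47% in Sod1KO. Erythroid markers summed to 15.6 CPM (WT) and 1617 CPM (Sod1KO) in the tSC-like cells, and the 16 tSC markers summed to 13862 and 9610 CPM; their part in these ratios was not tested.

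**Figure D3:**
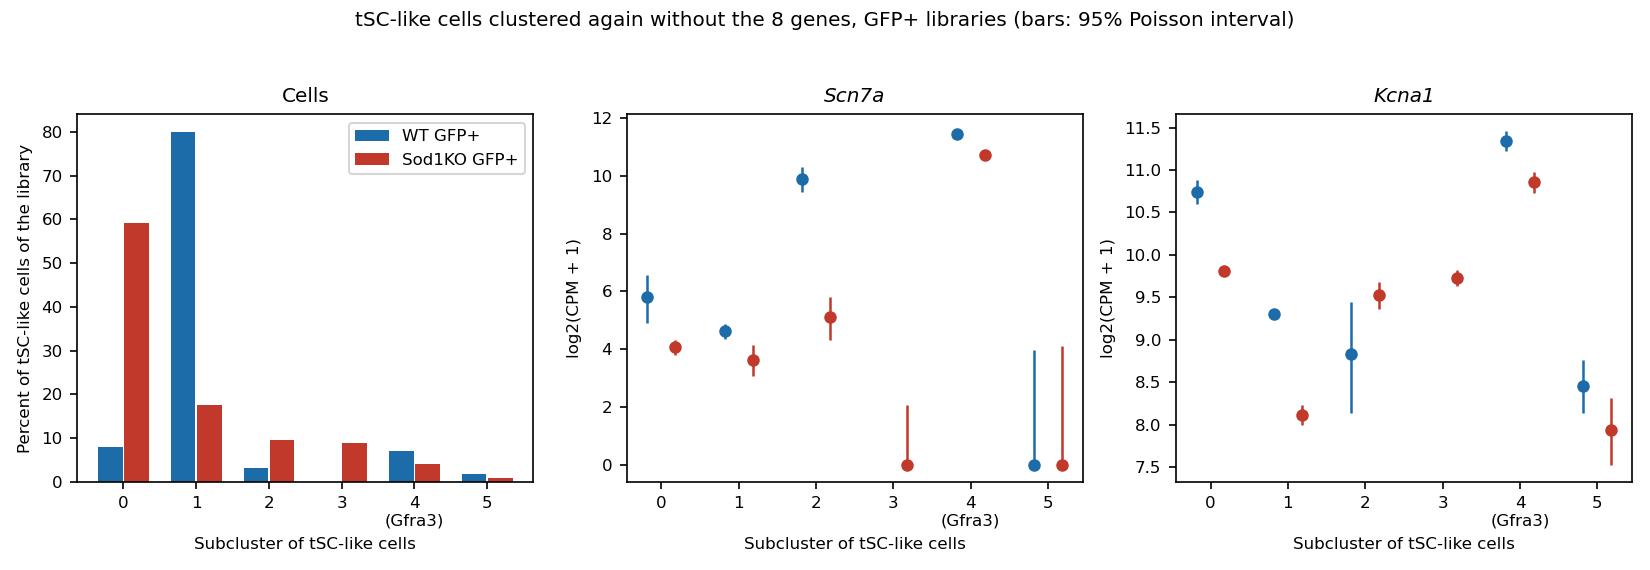
Share of the tSC-like cells of each GFP+ library in each subcluster (percent, left) and the levels of Scn7a and Kcna1 there (log2 of CPM plus 1, with exact Poisson 95% intervals). Scn7a peaks in subcluster 4 (2761 and 1702 CPM), which holds 7.11% and 3.97% of the cells, while most cells are in subcluster 1 in WT GFP+ (80.0%) and in subcluster 0 in Sod1KO GFP+ (59.1%).

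Kcnj8, the pore subunit, was concentrated in cells with pericyte markers. In pericyte-like cells it stood at 1139 CPM (1037–1249), 1059 CPM (950.1–1176), 2490.4 CPM (2362–2624) and 1404 CPM (1351–1459). Abcc9, the regulatory subunit, stood at 1668, 1414, 2995 and 2237 CPM. For both genes WT GFP- was the highest of the 4 libraries, with an interval apart from the rest. Cluster 5, which carries endothelial markers too, held a large share of the UMIs, with 33.3% to 67.5% of the Kcnj8 UMIs of a library and 32.9% to 63.5% of the Abcc9 UMIs. In endothelial-like cells Kcnj8 stood at 73.1, 66.5, 37.6 and 32 CPM and Abcc9 at 117, 120.4, 68.0 and 61.0 CPM. In the GFP+ libraries 89.1% and 85.7% of that Kcnj8 came from cluster 24, which held 40 and 67 cells and carried 4 of 10 pericyte markers beside 8 of 10 endothelial ones. Without cluster 24 the endothelial-like cells held 10.9 and 14.7 CPM of Kcnj8.

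Between genotypes Kcnj8 and Abcc9 were lower in the pericyte-like cells of the GFP- library labelled Sod1KO, by log2 ratios of −0.83 (−0.92 to −0.73) and −0.42 (−0.50 to −0.34). In the GFP+ libraries the ratios were −0.11 (−0.31 to 0.10) for Kcnj8 and −0.24 (−0.41 to −0.06) for Abcc9. Neither gene was at least 2-fold changed in GFP+ pericyte-like cells; of 3 members with enough UMIs Kcnab1 was, on the higher side, where 3.58% of 2735 genes were, and 0 members were on the lower side, where 2.38% were. In cluster 5 the genes parted. Kcnj8 fell from 993 to 658 CPM in GFP+ (log2 ratio −0.59, −0.72 to −0.47) and from 1071 to 913 CPM in GFP- (−0.23, −0.28 to −0.18). Abcc9 was 1105 and 1120.2 CPM in GFP+ (0.02, −0.08 to 0.12) and 1194 and 1248 CPM in GFP- (0.06, 0.02 to 0.11). In endothelial-like cells the GFP+ ratios were −0.14 (−0.36 to 0.09) for Kcnj8 and 0.04 (−0.13 to 0.22) for Abcc9. Within cluster 24 alone they were −0.57 (−0.81 to −0.32), from 241 to 163 CPM, and −0.26 (−0.45 to −0.07), from 350.0 to 292 CPM. Erythroid markers summed to 22.5 and 27.5 CPM in pericyte-like cells of the GFP+ libraries and to 7147 and 6697 CPM in those of the GFP- libraries, and their part in the levels was not tested. The median mitochondrial share of the GFP- pericyte-like cells was 3.66% (WT) and 5.78% (Sod1KO), and 39 of 52 and 75 of 208 of them passed a filter of over 500 genes and under 5%. Among those cells the ratios were −0.75 for Kcnj8 and −0.35 for Abcc9.

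The subunits were found in the same cells. Every pericyte-like cell with a Kcnj8 UMI held an Abcc9 UMI too, in 30, 29, 45 and 180 cells. Abcc9 without Kcnj8 was seen in 7, 5, 3 and 21 cells, and neither gene in 4, 16, 4 and 7 cells. After thinning, Kcnj8 was seen in 42.5% and 44.2% of pericyte-like cells of the GFP+ libraries and Abcc9 in 75.0% and 53.5%, with 1 and 7 shallower cells left out (unthinned, 73.2% and 58.0% for Kcnj8 and 90.2% and 68.0% for Abcc9). In endothelial-like cells the thinned shares were 2.30% and 2.96% for Kcnj8. Set per 100 Abcc9 UMIs, Kcnj8 gave 68.3 UMIs (60.5–77.1), 74.9 (65.0–86.3), 83.2 (77.4–89.3) and 62.8 (59.8–65.9). In cluster 5 the same ratio was 89.9 (84.2–95.9), 58.8 (53.7–64.4), 89.7 (86.4–93.1) and 73.2 (71.4–75.0). It was thus lower under the Sod1KO label in cluster 5 of both sorts and in GFP- pericyte-like cells, and not separable from the WT value in GFP+ pericyte-like cells.

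**Figure D4:**
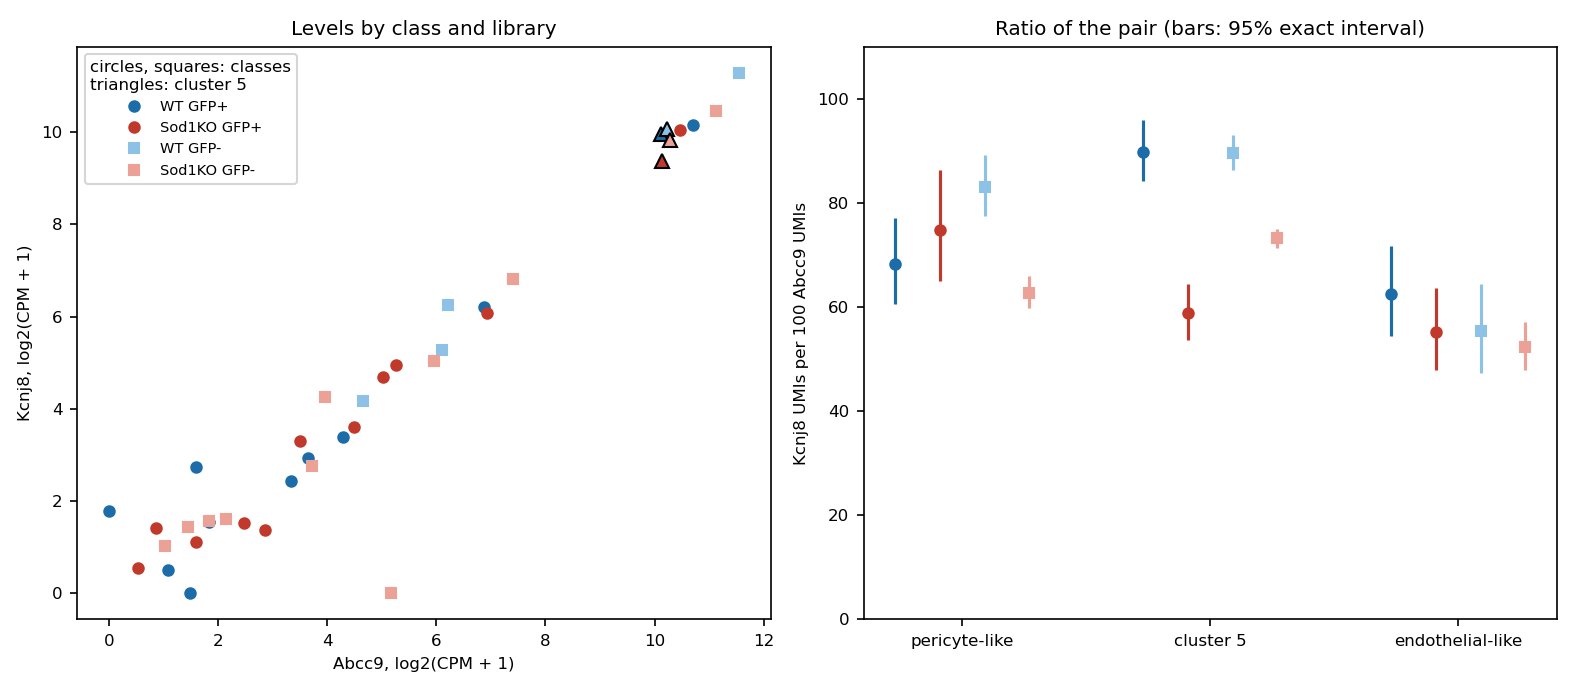
Left, Kcnj8 against Abcc9 by cell group and library, both as log2 of CPM plus 1; right, Kcnj8 UMIs per 100 Abcc9 UMIs with exact 95% intervals. The genes rise together across groups, and the ratio in cluster 5 is 89.9 and 89.7 in the WT libraries against 58.8 and 73.2 in those labelled Sod1KO.

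The tSC-like cells held little of either subunit, and most of it sat in 1 place. Abcc9 was 2.01 CPM on 12 UMIs (WT) and 10.3 CPM on 111 UMIs (Sod1KO) in the GFP+ libraries, a log2 ratio of 2.36 (1.5 to 3.36). Of these UMIs 10 and 70 were in subcluster 5, 7 and 8 cells led by the endothelial genes Fabp4 and Flt1, where endothelial markers summed to 3072 and 1837 CPM against at most 52.3 CPM in the other subclusters. Of the 34 and 95 Kcnj8 UMIs, 32 and 57 were in the same cells. In Sod1KO a further 40 Abcc9 and 37 Kcnj8 UMIs lay in subcluster 0 (521 cells), where the 30 WT cells held 0 of either. Few cells carried such UMIs: in cluster 7 of Sod1KO GFP+, 8 of 658 cells held 40 Abcc9 UMIs and 6 held 39 Kcnj8 UMIs.

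Kcnab1, an auxiliary beta subunit that attaches to voltage-gated potassium channels, marked smooth muscle. In smooth muscle-like cells it stood at 966 CPM (949–983), 1029 (1005.5–1052), 696 (643–752) and 995 (964–1027). A UMI was found in 548 of 554, 391 of 394, 36 of 37 and 183 of 183 cells, and the class held 72.4% to 88.7% of the Kcnab1 UMIs of a library. After thinning, 54.3% and 56.3% of the cells of the GFP+ libraries held one, against 0 of 131 and 0 of 214 macrophage-like cells (limits 2.29% and 1.40%, from 3 cells). Before thinning the shares in macrophage-like cells were 12.0% and 4.65%. The log2 ratio was 0.09 (0.05 to 0.13) in the GFP+ libraries and 0.52 (0.40 to 0.64) in the GFP- libraries. Of 5 members with enough UMIs in GFP+ smooth muscle-like cells 0 were at least 2-fold higher and 0 lower, where 1.69% and 0.553% of 10849 genes were (2.24% in either direction). Tenocyte-like cells held 32.7 and 26.5 CPM (−0.30, −0.46 to −0.15), mainly in cluster 15 (119.9 and 90.0 CPM), led by Col22a1 and Chodl.

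In GFP+ pericyte-like cells Kcnab1 rose from 155 CPM (119–199) to 398 CPM (332–472), a log2 ratio of 1.36 (0.91 to 1.82), on 5 of 41 and 16 of 50 cells. A single WT cell held 42 of the 62 UMIs, and without it the WT level was 51.3 CPM and the ratio 2.95 (2.27 to 3.71). The GFP- libraries gave 40.6 and 24.6 CPM, a log2 ratio of −0.72 (−1.47 to 0.07), and there 1 WT cell held 21 of 23 UMIs and turned the direction, with 2.80 (0.86 to 5.89) without it. The largest Sod1KO cell held 32 of 130 UMIs in GFP+ and 13 of 46 in GFP-. Without the largest cell of each library the ratios were 2.56 (1.86 to 3.33) in GFP+ and 2.33 (0.37 to 5.44) in GFP-. The direction in GFP- thus rested on 1 WT cell, while in GFP+ the WT cell changed the size of the ratio and not its direction. Smooth muscle markers summed to 3082 and 2332 CPM in the GFP+ cells and to 1554 and 2131 CPM in the GFP- cells, and their part in the Kcnab1 values was not tested. Cluster 12, with 5 of 10 smooth muscle, 7 of 10 pericyte and 6 of 10 endothelial markers, also rose, from 149.7 to 417 CPM in GFP+ (1.48, 1.22 to 1.74) and from 31.1 to 72.0 CPM in GFP- (1.21, 0.45 to 2.09), where 13 of the 14 WT UMIs came from 1 of 23 cells and the ratio without it was 4.89 (2.40 to 10.2). In Sod1KO 1 cell of cluster 12 held 131 of the 537 UMIs in GFP+ and 1 held 52 of the 547 in GFP-. Without the largest cell of each library the ratios of cluster 12 were 1.41 (1.12 to 1.71) in GFP+ and 4.75 (2.27 to 10.1) in GFP-. Cluster 25, led by Actg2, held 417 and 438 CPM (0.07, −0.12 to 0.26).

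Kcnj2 encodes the classical strong inward rectifier, which sets the resting potential of many excitable cells. It was spread over the nerve sheath and the vessel wall. Perineurial-like cells held 89.2 CPM (62.8–123), 62.4 (49.2–78.1), 189.6 (132–264) and 124 (110.3–139). Smooth muscle-like cells held 25.5, 18, 50.9 and 36.2 CPM. In both classes the WT value was above the Sod1KO value in each sort, and the GFP- value above the GFP+ value in each genotype. The log2 ratios in smooth muscle-like cells were −0.50 (−0.81 to −0.21) in GFP+ and −0.49 (−0.98 to 0.02) in GFP-, and in perineurial-like cells −0.51 (−1.10 to 0.09) and −0.61 (−1.12 to −0.06), the latter on 6 WT cells. Endothelial-like cells of the GFP- libraries fell from 12.8 to 5.70 CPM, a log2 ratio of −1.17 (−1.56 to −0.77). Cluster 8, which held 45.6% and 29.5% of the Kcnj2 UMIs of the GFP+ libraries, fell from 68.1 to 26.2 CPM (−1.38, −1.63 to −1.13). Of 6 comparisons with at least 30 cells and 50 UMIs, 5 were lower under the Sod1KO label, and 2 had an interval below 0. The exception was the tenocyte-like class, at 1.5 and 1.87 CPM (0.32, −0.35 to 1.01). Below the limit of 50 UMIs, Kcnj2 rose in mesenchymal-like cells of the GFP+ libraries, from 0.956 to 3.61 CPM. That log2 ratio was 1.92 (0.55 to 3.63), on 5 WT and 33 Sod1KO UMIs.

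The other potassium and sodium channel and pump genes, taken from 9 lists with 116 genes found in the files, were measured in the same cells. In tSC-like cells 32 had enough UMIs, 4 of them at least 2-fold higher and 7 at least 2-fold lower in Sod1KO GFP+, where 4.33% and 4.42% of all genes were, and 26 of the 32 were not members (3 higher, 6 lower). The median log2 ratio of the 32 was −0.31, against −0.02 over all genes with enough UMIs. Atp1b2, a sodium-potassium pump subunit of glia, fell from 226 to 103 CPM (−1.14, −1.25 to −1.02). Within clusters it gave −1.15 in cluster 7 and 0.10 in cluster 14. Kcna2, the partner of Kcna1 in heteromeric channels, went from 319.7 to 221 CPM (−0.53, −0.62 to −0.44), with −1.17 in cluster 7 and −0.24 in cluster 14. Kcnq5 went from 638 to 411 CPM (−0.63), while clusters 7 and 14 gave 0.23 and −0.02, and Kcnh8 from 483 to 394 CPM (−0.29).

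Among less abundant channels of tSC-like cells, Kcnj3 (40.8 to 12.2 CPM, −1.74), Kcnn2 (42.8 to 11.4 CPM, −1.90), Dpp6 (14.4 to 3.54 CPM, −2.03) and Scn2b (5.70 to 1.49 CPM, −1.94) were lower. Kcnd3 (7.55 to 20.4 CPM, 1.43), Scn8a (3.02 to 7.17 CPM, 1.25) and Atp1b1 (1.01 to 15.9 CPM, 3.98) were higher. Of these Kcnd3 kept its direction in both main clusters, at 1.86 (0.28 to 4.16, on 3 WT UMIs) and 1.18 (0.50 to 1.84), as did Kcnj3, at −1.23 (−2.04 to −0.32) and −0.91 (−1.37 to −0.46). Scn8a was 0.11 (−1.19 to 1.78) in cluster 7. Within cluster 7, 2 of 25 channel genes were at least 2-fold higher and 7 lower, where 5.96% and 4.61% of genes were, and within cluster 14, 3 of 26 were higher and 2 lower, where 0.759% and 1.25% were. The 2 lower in cluster 14 were Kcna1 and Scn7a, and the 3 higher were Kcnd3, Kcnj8 and Abcc9. In Sod1KO the 56 Kcnj8 UMIs of that cluster came from 4 cells and the 70 Abcc9 UMIs from 3 cells, of 137.

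**Figure D5:**
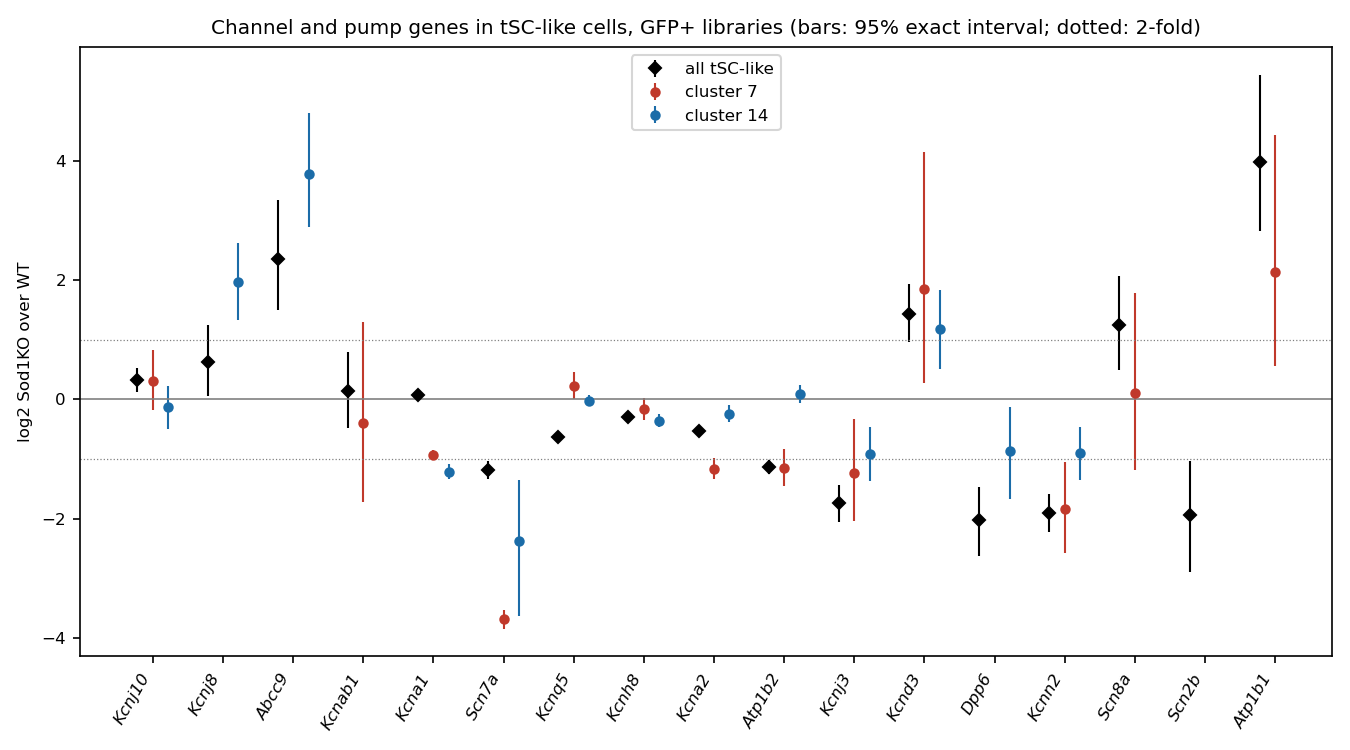
Log2 ratio of CPM, Sod1KO GFP+ over WT GFP+, for channel and pump genes in all tSC-like cells and in clusters 7 and 14 alone, with exact 95% intervals; dotted lines mark 2-fold. Atp1b2 sits at −1.14 in the class but at 0.10 in cluster 14, while Kcnd3 lies on the higher side in all 3 (1.43, 1.86 and 1.18).

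In the other classes few channel genes moved by 2-fold. In mSC-like cells 17 had enough UMIs and Kcnj10 was the 1 past 2-fold, with a list median of −0.26 against −0.03 over all genes. In cluster 2, the larger of its clusters, the same was true of 15 channel genes (1 higher, 0 lower), where 0.704% and 0.986% of all genes were. Atp1b3 (836 and 891 CPM) and Kcna2 (375 and 365 CPM) stayed within 0.1 of 0 on the log2 scale. In smooth muscle-like cells 2 of 34, Kcnq5 (18 to 36.7 CPM, 1.03) and Kcnip1 (2.89 to 6.96 CPM, 1.27), were higher and 0 lower, where 1.69% and 0.553% of all genes were, with a median of −0.19 against −0.01. Kcnma1, the large-conductance calcium-activated channel of vascular smooth muscle, was 445 and 472 CPM there (0.09) and Scn4b 144 and 102 CPM (−0.50). In pericyte-like cells 2 of 10, Kcnab1 and Kcnma1 (82.6 to 168 CPM; 1.03, 0.38 to 1.69), were higher and 0 lower, where 3.58% and 2.38% were, with a median of 0.07 against −0.06.

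The genes whose levels followed each member most closely were read from log2(CPM+1) over 29 points, each a class of at least 50 cells in a library, among 15748 genes. The points share libraries, so the correlations are a description. Kcnj8 and Abcc9 were each other's nearest gene (Pearson r = 0.985), followed for both by Tmem182 and Higd1b. Next to Kcna1 stood Sox10 (r = 0.962) and Gpr37l1 (r = 0.954), both general Schwann cell genes. Kcnj10 was nearest to Gm36001 (r = 0.957), I730030J21Rik and Rit2, and Kcnab1 to Slc6a17 (r = 0.953), Ryr2 and 9230112J17Rik. Kcnk1 was nearest to Mt3 (r = 0.929), Rragb and Yjefn3, Scn7a to Adamts12 (r = 0.885), Mapk10 and Sfrp1, and Kcnj2 to Gna14 (r = 0.882), Isyna1 and Ldb1. Among the members themselves the next pair after Kcnj8 and Abcc9 was Kcnj10 and Kcna1 (r = 0.807).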

How the data were processed

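Per gene and barcode, the authors deposited UMI counts made with Cell Ranger 7.1.0 per the file headers and the submitters' notes, which also name mm10 and Seurat 4.30; the study's methods name other versions of the pipeline and build. Barcodes were kept above 200 detected genes and below 10% of mitochondrial UMIs, and the cells most like simulated doublets were removed (0.8% per 1000 barcodes), which took out 27 to 366 cells per library. The total was 21959719 to 105954116 UMIs per library. Clusters came from 2000 variable genes without the 8 members, 30 principal components, 20 neighbours and Leiden resolution 1. A class name needed 3 markers and 50% of a fixed list (over 20 CPM and 2 times the other clusters). It also needed 50 cells and no clash with another list, and a shallow cluster needed a marker among its leading genes. These naming limits were set after the clusters were seen, and names may differ from the study's, whose ambient RNA and integration steps were not used.

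CPM carry Poisson intervals and log2 ratios conditional binomial intervals, and shares carry Clopper-Pearson intervals, except that the limit of a share of 0 is 3 cells of the total; a count of 0 was set to 3 UMIs in a ratio, and no ratio was given where both counts were at or under 3. Ratios were computed for the class of highest mean level with at least 50 cells in each GFP+ library. By that rule Kcnj8 and Abcc9 were read in endothelial-like and Scn7a in mesenchymal-like cells; the pericyte-like, perineurial-like, tSC-like and mSC-like (Kcnj10) ratios, subclusters (1000 variable genes, resolution 0.5) and single clusters were added after the data were seen. The members and lists were chosen with earlier results of these data known. Other channels were named if at or above 20 CPM in a class (at most 5) or past 2-fold; some genes this rule takes, and 1 nearest gene by correlation, are not reported here. Ratios and intervals were tested on Poisson counts simulated from the summed UMIs of tSC-like cells. The intervals assume the same counting model, so that test cannot show how they hold where few cells carry most UMIs. Sequences and coordinates are from RefSeq on GRCm38.p6, which had upstream sequence for 7 of the 8 genes. Work was done with Python 3.11.15, leidenalg 0.10.2, igraph 0.11.9, scikit-learn 1.9.0, scipy 1.17.1, numpy 2.4.6, matplotlib 3.10.9 and pandas 2.3.3.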

Additional observations from a re-analysis of the deposited data

Results flagged for a closer look

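In smooth muscle-like cells the genotype ratio of both ATP-sensitive channel subunits had opposite signs in the sorts. Kcnj8 gave a log2 ratio of Sod1KO over WT of 0.77 (0.31 to 1.23) in the GFP+ libraries and −3.71 (−4.47 to −3.00) in the GFP- libraries, and Abcc9 gave 0.90 (0.57 to 1.24) and −2.59 (−3.16 to −2.03). The difference between the sorts was not tested. The WT GFP- value rested on 1 of 37 cells, which held 66 of the 69 Kcnj8 UMIs and 61 of the 68 Abcc9 UMIs. Without that cell the GFP- ratios were 0.72 (−1.01 to 3.10) and 0.59 (−0.56 to 1.98).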

How the results depend on the processing

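No paired analysis was possible because each group has 1 library, and no replicate could be left out. Of 122 recomputed ratios 97 moved by less than their counting interval. Under the planned settings 77 had a first value with an interval clear of 0, and all 77 kept their sign. Planned here describes the setting only. The 77 include ratios added after the data were seen, such as those of Kcna1 and Scn7a in tSC-like cells. Values whose interval spanned 0 changed sign in 5 planned settings, for Kcnj8 and Abcc9 in endothelial-like and Scn7a in mesenchymal-like cells. Values clear of 0 changed sign in single clusters of tSC-like cells, where the makeup of the class differs: Kcna1 gave −0.93 (cluster 7) and −1.21 (cluster 14) and Kcnj10 −0.13 (cluster 14), while Scn7a gave −3.69 and −2.38. The part of the Gfra3 subcluster in the Scn7a value of cluster 7 was not tested. The cause of the other shifts was not tested. The stricter filter (over 500 genes, under 5% mitochondrial UMIs) left 522 of 1079 (WT) and 163 of 656 (Sod1KO) cells of the mSC-like class (median mitochondrial share 5.03% and 6.14% before) and 73 of 554 and 42 of 394 smooth muscle-like cells, and gave −0.48 for Kcna1 and −0.15 for Kcnk1 in mSC-like cells, −1.18 for Kcnj2 and 0.24 for Kcnab1 in smooth muscle-like cells, and −0.98 for Scn7a in tSC-like cells. Without doublet removal Kcnab1 gave 0.019 in smooth muscle-like cells, and Kcna1 0.13 and Scn7a −0.87 in tSC-like cells. The mean of per-cell CPM gave 0.12 (Kcnj8) and 0.32 (Abcc9) in endothelial-like cells, −0.43 and −0.53 in GFP+ and −0.73 and −0.31 in GFP- pericyte-like cells, 0.15 for Kcnab1 and −1.53 for Scn7a in tSC-like cells. Pericyte-like cells together with cluster 5 gave −0.45 (Kcnj8) and −0.029 (Abcc9) in GFP+ and −0.32 and −0.0032 in GFP-. Counts of channel genes past 2-fold in tSC-like cells became 2 higher in cluster 7 alone, and 4 (stricter filter), 11 (no doublet removal), 12 (fold 1.5) or 2 (cluster 14 alone) lower. In mSC-like cells 2 (fold 1.5) or 3 (minimum of 20 UMIs) were higher, and 1 was lower under each of these. In smooth muscle-like cells 0 (stricter filter), 4 (5% ambient RNA subtracted) or 4 (fold 1.5) were higher, and 4 (fold 1.5) or 1 (20 UMIs) lower. In pericyte-like cells 1 was higher under the stricter filter, resolution 0.5 or members kept in the clustering, and 2 lower at 20 UMIs. At 2000 UMIs a cell the shares with a UMI were 9.94% (Kcnj10, tSC-like Sod1KO GFP+), 93.8% and 92.8% (Kcna1, mSC-like), 71.3% and 75.3% (Kcnab1, smooth muscle-like), 61.5% and 64.1% (Kcnj8) and 76.9% (Abcc9, Sod1KO GFP+) in pericyte-like cells.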
